A study of Mus musculus with 12 samples.

Results

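Pyruvate entry into mitochondria and its oxidation by the pyruvate dehydrogenase complex (PDH) were followed through 10 genes in mouse liver: the carrier genes Mpc1 and Mpc2, the complex subunits Pdha1, Pdhb, Dlat and Pdhx, the inhibitory kinases Pdk1, Pdk2 and Pdk4, and the activating phosphatase Pdp2. The members were taken by gene symbol from the count table of 24787 genes. All 10 were in the table, and all 10 were among the 14172 genes with enough counts to be tested. RNA from 12 liver libraries was sequenced, 4 in each of 3 groups of C57Bl/6 mice. HFD+MEC1 mice had eaten a high-fat diet for 2 months and were then given MEC1, a compound known here by its code name, at 0.5 mg/kg by daily intraperitoneal injection. HFD mice ate the same diet and were injected with vehicle after random allocation. ND mice ate a normal diet, likewise for 2 months before the random allocation. Injection of ND mice, the duration of dosing, sex, age and batch are not given in the labels, and the labels do not say that each library is a separate mouse. Any effect of the injection therefore cannot be told apart from that of the diet where HFD is set against ND, and p-values speak only of the scatter among these libraries, which may be technical.

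Pyruvate made by glycolysis in the cytosol crosses the inner mitochondrial membrane through a carrier formed by MPC1 and MPC2. Inside, the PDH complex turns it into acetyl-CoA: the E1 enzyme (PDHA1 with PDHB) removes carbon dioxide, E2 (DLAT) passes the acetyl group to coenzyme A, and PDHX anchors the E3 enzyme (DLD), which restores the lipoyl arm. PDK enzymes phosphorylate E1 and switch the complex off, and PDP phosphatases switch it on again. In liver this step divides pyruvate between oxidation and fat synthesis on one side and glucose production on the other, and Pdk4 is known as a gene that fasting and fatty acids induce.

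The start regions of the 3 members that passed the test in any comparison are shown because these genes carry the called differences. Each is the 150 bases before the RefSeq transcript start nearest the gene start, on GRCm38.p6, written 5′ to 3′ on the strand of the gene. Capitals mark CCAAT, the motif bound by the NF-Y factor, or its reverse complement ATTGG.
Mpc1, chr17:8283637-8283786, plus strand: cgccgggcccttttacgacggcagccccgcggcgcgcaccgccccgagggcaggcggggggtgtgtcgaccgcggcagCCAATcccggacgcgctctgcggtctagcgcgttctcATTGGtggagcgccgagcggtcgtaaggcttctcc
Pdhb, chr14:8172993-8173142, minus strand: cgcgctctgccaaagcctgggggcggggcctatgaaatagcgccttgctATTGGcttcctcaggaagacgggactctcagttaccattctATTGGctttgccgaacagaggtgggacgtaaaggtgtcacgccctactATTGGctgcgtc
Pdp2, chr8:104591322-104591471, plus strand: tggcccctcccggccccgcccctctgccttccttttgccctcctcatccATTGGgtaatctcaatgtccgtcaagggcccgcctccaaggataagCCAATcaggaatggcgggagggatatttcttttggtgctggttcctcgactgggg
All 3 stretches hold the motif more than once. Over the full 300-base windows that RefSeq gives (250 bases before and 50 after each start), 7 of the 10 members held CCAAT on either strand in at least 1 window, and these were Mpc1, Mpc2, Pdhb, Pdhx, Pdk2, Pdk4 and Pdp2. The members had 13 windows, of which 7 held it, and 37.4% of all 32851 mouse windows held it. CCAAT was picked after these promoters had been read, so its share among the members is no test against that background. ACGTG, the core of the hypoxia response element, was in windows of Pdhb, Pdk2 and Pdp2 and in 19.6% of all windows; in Pdk2 and Pdp2 it lay within the E-box CACGTG, which 7.15% of all windows held. AGGTCA, a nuclear receptor half-site, was in 1 window of Mpc1 and in 16.3% of all. Neither the forkhead motif TGTTTAC (3.65% of all windows) nor TATAAA (13.6%) was found in a window of any member. Such matches describe letters in these windows and not bound sites.

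Library totals ran from 39916405 to 51340317 counts. Hepatocyte markers (Alb, Apoa1, Ttr, Hnf4a, Cps1, Serpina1a and Tat) were present in every library, with summed levels of 71032 to 95677 CPM (counts scaled to TMM-adjusted library totals) in HFD+MEC1, 87450 to 100358 CPM in HFD and 89988 to 104462 CPM in ND. Skeletal muscle markers summed to no more than 0.108 CPM in any library. White fat was marked by Adipoq, Lep, Retn and Adrb3. These summed to 2.16 to 4.59 CPM in HFD+MEC1, 1.03 to 2.91 CPM in HFD and 2.10 to 4.26 CPM in ND. Adipoq and Lep were at 0 in all HFD+MEC1 and HFD libraries, whereas Adrb3 was found in every library. Of 10 marker lists for liver and neighbouring cell types, none had a called member between HFD+MEC1 and HFD, where only 4 of 14172 tested genes were called. That absence is therefore no measure of equal cell make-up. The skeletal muscle list had 0 tested markers, and the white fat and pancreas lists had 1 each. Against ND, HFD had 1 hepatocyte marker lower, and HFD+MEC1 had 1 hepatocyte and 1 cholangiocyte marker lower and 1 endothelial marker higher. Summed macrophage markers were 395 to 513 CPM in HFD+MEC1, 340.05 to 521 CPM in HFD and 271 to 411 CPM in ND. In bulk tissue, fewer cells of a type and less RNA per cell cannot be told apart.

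Some libraries stood apart from their group. HFD+MEC1 replicate 3 was the most distant along the second principal component of all tested genes, at 55.9, against -6.72 to 26.7 in the other HFD+MEC1 libraries. It also carried the most acute-phase mRNA, with 7761 CPM of Saa1, a gene picked after its values were seen. Saa1 stood at 23.4, 1707 and 1430.04 CPM in HFD+MEC1 replicates 1, 2 and 4, at 78.9, 95.1, 91.0 and 1178 CPM in HFD replicates 1 to 4, and at 582 to 1218 CPM in ND. HFD+MEC1 replicate 1 lay nearest the HFD libraries, and HFD replicate 4 lay nearest the HFD+MEC1 libraries. The part that acute-phase RNA played in the member differences was not tested. Several member differences are also given without 1 of these 3 libraries. Ratios, kinase shares and the differences of single genes other than the members are given with all libraries only.

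Levels between genes are compared per length, on the authors' RPKM values. Averaged over the 12 libraries, the carrier mRNAs were the most abundant, with Mpc2 at 102 RPKM and Mpc1 at 72.8 RPKM. The E1 subunits followed, with Pdhb at 51.9 RPKM and Pdha1 at 36.2 RPKM, whereas the core and anchoring subunits were lower, with Dlat at 10.8 RPKM and Pdhx at 7.73 RPKM. Pdk2 was the leading kinase at 20.05 RPKM, ahead of Pdk1 at 10.9 RPKM and Pdk4 at 4.12 RPKM, and Pdp2 was at 4.04 RPKM. Mpc2 exceeded Mpc1 and Pdhb exceeded Pdha1 in every library, whereas Pdk1 and Dlat, Dlat and Pdhx, and Pdk4 and Pdp2 changed places between libraries. The remaining genes of the complex were Dld at 51.0 RPKM, the regulatory phosphatase subunit Pdpr at 2.93 RPKM, Pdp1 at 0.317 RPKM and Pdk3 at 0.194 RPKM.

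**Figure D1:**
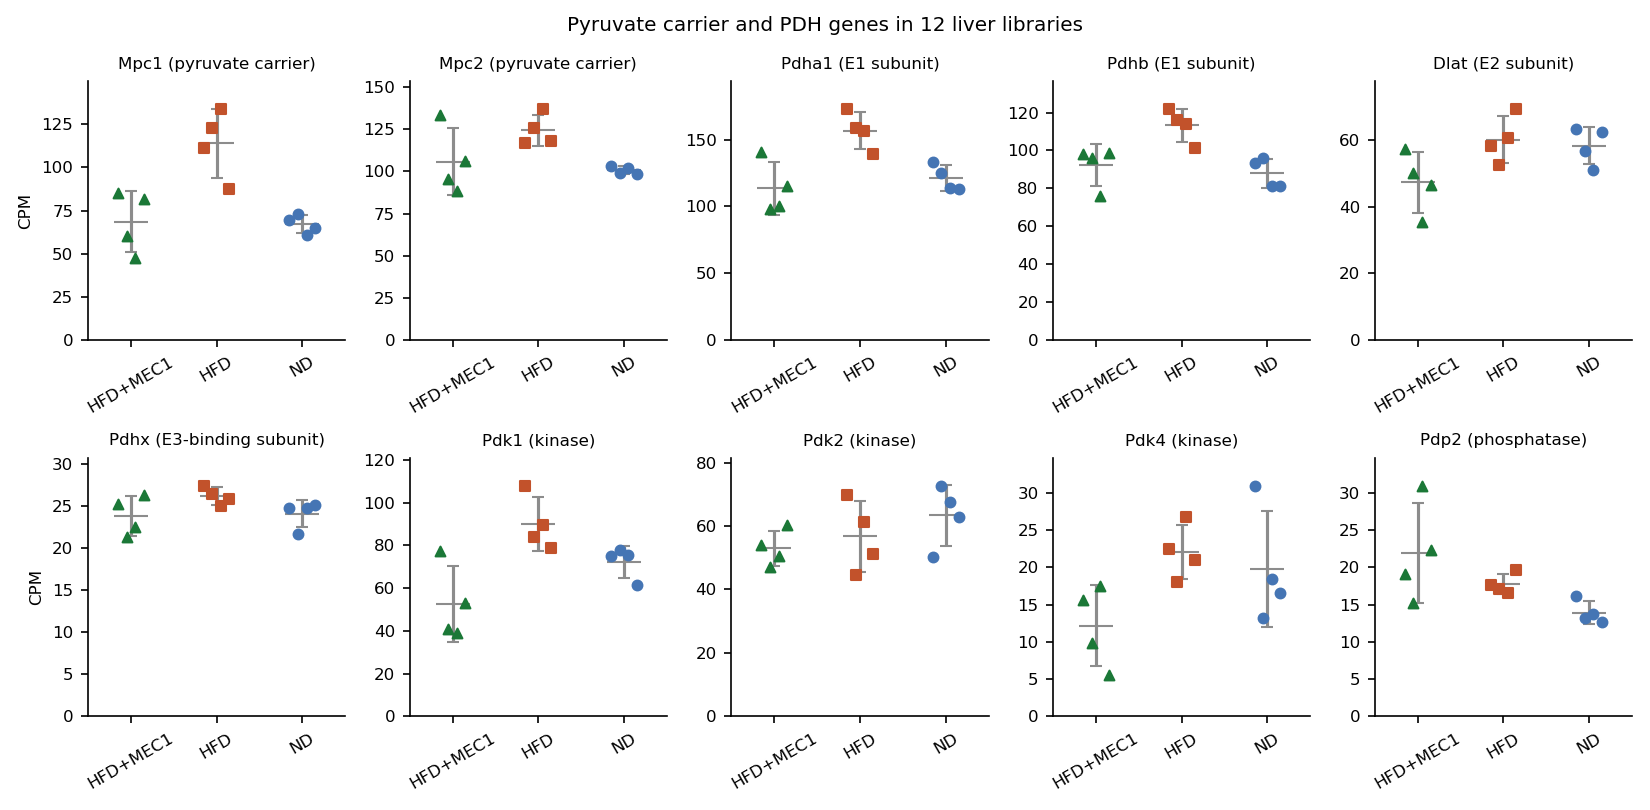
CPM of each of the 10 genes in every library (y axes, linear from 0) for HFD+MEC1, HFD and ND (x axes). Points are libraries, in replicate order within a group, and bars are the mean ± SD of 4. Mpc1 has every HFD library above all ND and all HFD+MEC1 libraries; Pdp2 is highest in HFD+MEC1 replicate 3, at 31.0 CPM.

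On the high-fat diet with vehicle, Mpc1 and Pdhb rose against ND, and the other 8 members did not pass the threshold. A gene was called when its Benjamini-Hochberg adjusted p over the 14172 genes, from edgeR's quasi-likelihood test, was under 0.05. Between HFD and ND, 6.3% of all tested genes were called, and 3.35% of all tested genes were called higher in HFD. The differences of 9 of the 10 members were positive, with a median log2 fold change of 0.31, beside -0.00 for all tested genes, whose quartiles were -0.19 and 0.18. For 6 members (Mpc1, Mpc2, Pdha1, Pdhb, Pdk1 and Pdp2) every HFD library was above every ND library, a separation in that direction that 7.46% of all genes had. At an unadjusted p under 0.05 there were 4 members, beside 20.7% of all genes.

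With MEC1 on the high-fat diet, none of the 10 members passed the threshold against HFD. Few genes did: 4 of 14172, or 0.0282%, with Fbxo21 higher and Hnmt, Tkt and Pnpla3 lower; these names were taken after their values were seen. DESeq2, which called 389 genes in all, called 3 members (Mpc1, Pdha1 and Pdk1, all lower), and limma-voom, which called 1 gene in all, called 0. Differences were negative for 9 of the 10 members, the exception being Pdp2, with a median log2 fold change of -0.32 beside 0.01 for all genes, whose quartiles were -0.16 and 0.16. For Mpc1, Pdhb, Pdk1 and Pdk4 every HFD+MEC1 library was below every HFD library; 3.98% of all genes were separated in that direction. At an unadjusted p under 0.05 there were 7 members, beside 14.8% of all genes. Leaving out HFD+MEC1 replicate 1 brought the count of members called lower to 4 (Mpc1, Mpc2, Pdha1 and Pdk1) and the count of all genes called to 460. Leaving out HFD replicate 4 brought them to 1 (Mpc1) and 72. These libraries lay nearest the opposite group, so leaving either out favours a wider gap. Without HFD+MEC1 replicate 3, 0 genes were called. Over all 12 omissions the counts ran from 0 to 4 members and from 0 to 460 genes.

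Between HFD+MEC1 and ND, which differ in diet and treatment together, Pdp2 was the 1 member called, and it was higher in HFD+MEC1; 4.54% of all tested genes were called, and 2.15% were called higher. The members' median log2 fold change was -0.06 beside 0.00 for all genes, with 4 differences positive and 6 negative. No member had groups that did not overlap, whereas 11% of all genes did. The 3 comparisons share libraries: HFD stands in the first as the group under study and in the second as the baseline, so opposite signs for the same gene in those comparisons are not separate evidence.

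**Figure D2:**
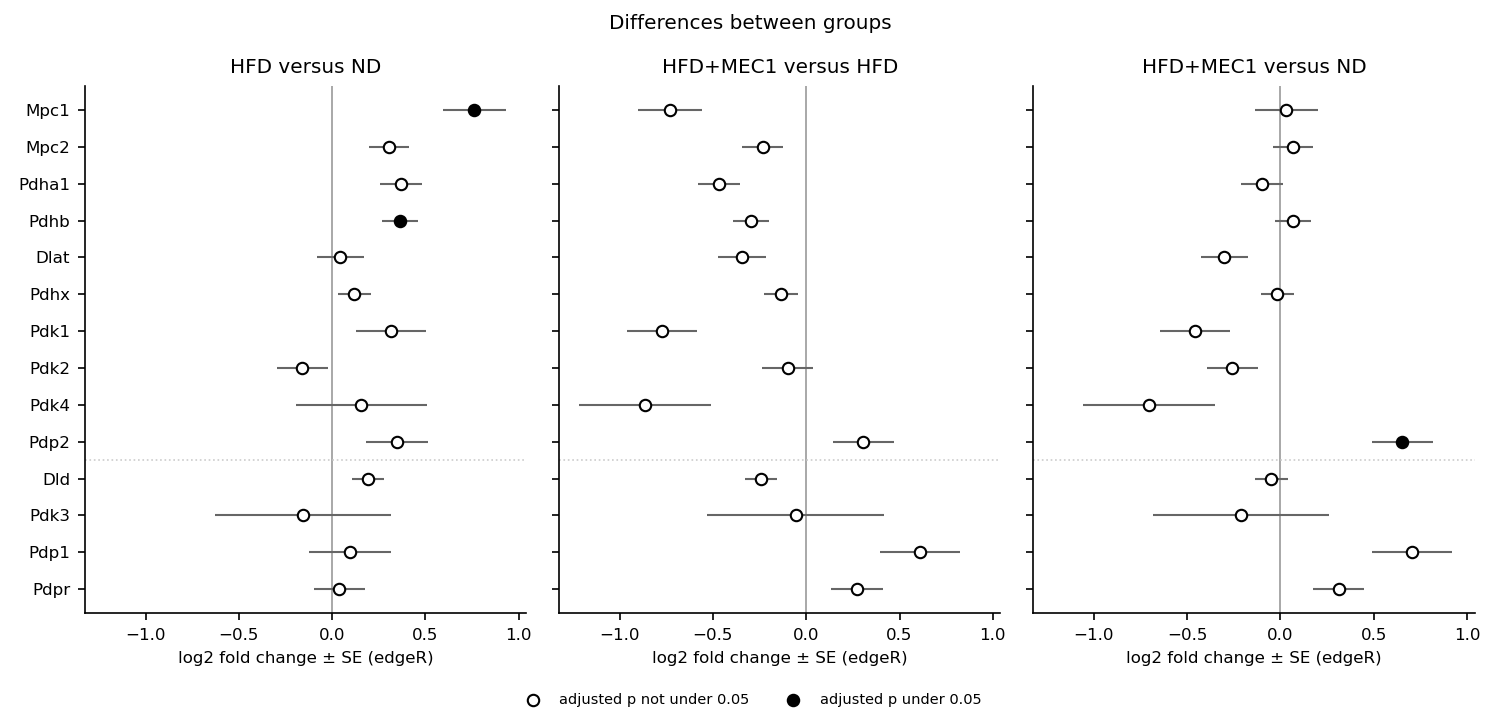
Log2 fold changes ± SE from edgeR (x axes) for the 10 genes and, under the dotted line, the 4 remaining subunits and regulators, in HFD versus ND, HFD+MEC1 versus HFD and HFD+MEC1 versus ND. Filled points passed an adjusted p of 0.05: Mpc1 and Pdhb in the left panel and Pdp2 in the right one, with none in the middle.

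Mpc1 encodes a partner of the pyruvate carrier (chr17:8282904-8297661, plus strand, protein coding; coordinates of genes are from GENCODE M21 on GRCm38). It stood at 85.0, 60.3, 47.5 and 81.6 CPM in HFD+MEC1 replicates 1 to 4, at 111, 123, 134 and 87.4 CPM in HFD and at 69.8, 72.9, 60.9 and 64.9 CPM in ND. HFD was the high group, ND was the tightest, and HFD+MEC1 spread from below ND to just under HFD. Mpc1 rose in HFD, averaging 114 ± 19.9 CPM against 67.1 ± 5.30 CPM in ND (SD, n = 4 each), a log2 fold change of 0.76 ± 0.17 (SE; edgeR adjusted p = 0.0181). That call was lost when ND replicate 3 or 4 or HFD replicate 2 or 3 was left out, with edgeR adjusted p-values of 0.0536 to 0.0626 and log2 fold changes of 0.68 to 0.74. In HFD+MEC1 it averaged 68.6 ± 17.8 CPM, for a log2 fold change of -0.73 ± 0.17 against HFD (edgeR adjusted p = 0.101). Without HFD+MEC1 replicate 1 the value was -0.85 (edgeR adjusted p = 0.0235), without HFD replicate 4 it was -0.84 (edgeR adjusted p = 0.0411), and without HFD+MEC1 replicate 3 it was -0.58, not called. Against ND, the HFD+MEC1 difference was 0.03 ± 0.17 on the log2 scale (edgeR adjusted p = 0.9503).

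The exons of Mpc1 share 23.1% of their bases with 4930506C21Rik on the opposite strand, and the sources used here do not say whether strand was used in counting. That gene had 282 to 1030 counts per library, against 1850 to 6753 for Mpc1, and of all other 14171 tested genes it was the most like Mpc1 across the 12 libraries (Pearson r of log2 CPM 0.990, given as a description). Reads from the overlap cannot be told apart. Mpc1-ps matches 261 of 961 bases of an Mpc1 transcript at 100% identity and Gm8219 matches 242 bases at 95.9%; neither is a row of the count table, so the counting of such reads is uncertain. Next in likeness were Gys2, the liver glycogen synthase, at 0.981, and Esd, an esterase, at 0.969. The libraries behind these values share their groups, so the likeness includes what diet and treatment did to each gene.

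Mpc2, the other carrier subunit (chr1:165460637-165481214, plus strand), was at 133, 95.4, 88.2 and 106 CPM in HFD+MEC1, at 117, 126, 137 and 118 CPM in HFD and at 103, 99.2, 102 and 98.7 CPM in ND. All HFD libraries were above all ND libraries, and HFD+MEC1 replicate 1 reached the HFD range while the rest of its group lay near ND. Mpc2 gave a log2 fold change of 0.30 ± 0.11 in HFD versus ND (edgeR adjusted p = 0.111) and of -0.23 ± 0.11 in HFD+MEC1 versus HFD (edgeR adjusted p = 0.328). Without HFD+MEC1 replicate 1 that second difference was -0.36 (edgeR adjusted p = 0.0384), and without HFD+MEC1 replicate 3 it was -0.15, not called. Per length, the ratio of Mpc2 to Mpc1 was 1.67 ± 0.239 in HFD+MEC1, 1.18 ± 0.172 in HFD and 1.60 ± 0.138 in ND (RPKM ratio, SD, n = 4 each). HFD replicate 4, at 1.44, was above the lowest HFD+MEC1 library, at 1.38, and the other HFD libraries, at 1.08 to 1.11, were below all libraries of both other groups.

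Pdha1 and Pdhb encode the α and β chains of E1. Pdhb (chr14:8165996-8173025, minus strand) was at 98.0, 96.2, 75.7 and 98.9 CPM in HFD+MEC1, at 122, 116, 114 and 101 CPM in HFD and at 93.1, 96.0, 81.3 and 81.4 CPM in ND. HFD was above both other groups with no overlap, and HFD+MEC1 replicate 3 was lower than the rest of its group. Pdhb rose in HFD to 113 ± 8.60 CPM, against 88.0 ± 7.71 CPM in ND (SD, n = 4 each), a log2 fold change of 0.36 ± 0.10 (edgeR adjusted p = 0.0366). Leaving out ND replicate 1, 3 or 4 or HFD replicate 1, 2 or 3 ended the call, with edgeR adjusted p-values of 0.0615 to 0.128 and log2 fold changes of 0.32 to 0.39. Against HFD, HFD+MEC1 differed by -0.30 ± 0.10 (edgeR adjusted p = 0.185), and by -0.21 without replicate 3. A 97.0% match to the copy Gm6123 covers 1079 of 1513 bases of a Pdhb transcript, and Gm6123 is not among the rows of the count table, so how such reads were counted is uncertain. The genes most like Pdhb across the 12 libraries were Lect2 (r = 0.962), a hepatocyte-secreted factor, Esd (0.940) and Slc25a21 (0.933), a mitochondrial oxodicarboxylate carrier.

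Pdha1 carries the serines that PDK enzymes phosphorylate (chrX:160122209-160138413, minus strand). Levels were 141, 97.9, 100.05 and 115 CPM in HFD+MEC1, 173, 158, 157 and 139 CPM in HFD and 134, 125, 114 and 113 CPM in ND. HFD again lay above ND without overlap, and HFD+MEC1 replicate 1 sat just above the lowest HFD library. Pdha1 had a log2 fold change of 0.37 ± 0.11 in HFD versus ND (edgeR adjusted p = 0.0628) and of -0.47 ± 0.11 in HFD+MEC1 versus HFD (edgeR adjusted p = 0.101). It passed in HFD versus ND without HFD replicate 4 (0.42, edgeR adjusted p = 0.0479), without HFD+MEC1 replicate 1 (0.37, 0.0239) or 3 (0.36, 0.0470), and it passed in HFD+MEC1 versus HFD without HFD+MEC1 replicate 1 (-0.59, edgeR adjusted p = 0.00917). These were 3 and 1 of 12 omissions. In the others it did not pass, and the edgeR adjusted p reached 0.180 in HFD versus ND and 0.257 in HFD+MEC1 versus HFD. HFD+MEC1 libraries act on HFD versus ND chiefly through the spread shared in the 1 fit. Of its exonic bases, 16.1% overlap Map3k15 on the opposite strand, which had 877 to 1935 counts per library against 3898 to 7910 for Pdha1. The ratio of Pdhb to Pdha1 per length was 1.58 ± 0.240 in HFD+MEC1, 1.38 ± 0.0231 in HFD and 1.39 ± 0.0571 in ND. HFD+MEC1 replicates 1 to 4 stood at 1.34, 1.88, 1.45 and 1.64, against 1.34 to 1.47 in ND. Replicates 2 and 4 were above every library without MEC1, replicate 3 lay within the ND range and replicate 1 at its lower edge. The difference in spread was not tested.

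Dlat (chr9:50634633-50659780, minus strand), the lipoyl-bearing E2 core, was at 57.3, 50.1, 35.4 and 46.4 CPM in HFD+MEC1, at 58.2, 52.5, 60.5 and 69.2 CPM in HFD and at 63.2, 56.6, 51.1 and 62.3 CPM in ND. HFD and ND overlapped, and HFD+MEC1 replicate 3 was the lowest of the 12. Dlat differed by 0.04 ± 0.13 in HFD versus ND (edgeR adjusted p = 0.886), by -0.34 ± 0.13 in HFD+MEC1 versus HFD (0.219) and by -0.30 ± 0.13 in HFD+MEC1 versus ND (0.204). Without HFD+MEC1 replicate 3 the differences of Dlat were -0.22 from HFD and -0.19 from ND. Pdhx (chr2:103021075-103073513, minus strand), which holds E3 to the core, lay in a narrow range, with 21.3 to 26.4 CPM in HFD+MEC1, 25.02 to 27.5 CPM in HFD and 21.7 to 25.1 CPM in ND. Its log2 fold changes were 0.12 ± 0.09 in HFD versus ND, -0.14 ± 0.09 in HFD+MEC1 versus HFD and -0.02 in HFD+MEC1 versus ND, none called. The shared E3 subunit Dld averaged 138 ± 7.50 CPM in HFD+MEC1, 163 ± 12.8 CPM in HFD and 142 ± 11.1 CPM in ND, with a log2 fold change of 0.19 ± 0.09 in HFD versus ND and of -0.24 ± 0.09 in HFD+MEC1 versus HFD (edgeR adjusted p = 0.214 and 0.208).

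Among the kinases, Pdk1, an isoform known for its induction by hypoxia (chr2:71873224-71903858, plus strand), stood at 77.4, 41.1, 38.9 and 53.1 CPM in HFD+MEC1, at 108, 83.8, 89.4 and 78.9 CPM in HFD and at 74.9, 77.7, 75.4 and 61.3 CPM in ND. HFD was above both other groups without overlap. In HFD+MEC1, replicates 2, 3 and 4 lay below every ND library, and replicate 1 was just under the lowest HFD library. Pdk1 averaged 52.6 ± 17.6 CPM in HFD+MEC1, 89.99 ± 12.7 CPM in HFD and 72.3 ± 7.44 CPM in ND (SD, n = 4 each). Its log2 fold change was -0.77 ± 0.19 in HFD+MEC1 versus HFD (edgeR adjusted p = 0.113) and 0.32 ± 0.19 in HFD versus ND (edgeR adjusted p = 0.376). Without HFD+MEC1 replicate 1 it passed against HFD (-1.02, edgeR adjusted p = 0.00558) and against ND (-0.70, edgeR adjusted p = 0.00754). That was the only 1 of 12 omissions that passed in either comparison, and it drops the treated library nearest HFD. Over the 12, the difference shrank to as little as -0.65 from HFD and -0.34 from ND. The edgeR adjusted p reached 0.271 and 0.401. With all libraries the difference from ND was -0.46 ± 0.19 (edgeR adjusted p = 0.205).

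Pdk2, the kinase with the highest level per length in these livers (chr11:95026258-95041354, minus strand), was at 54.0, 47.2, 50.5 and 60.3 CPM in HFD+MEC1, at 69.9, 44.7, 61.2 and 51.2 CPM in HFD and at 50.3, 72.7, 67.6 and 62.7 CPM in ND. The 3 groups overlapped. Pdk2 was the 1 member with a negative difference in HFD versus ND, -0.16 ± 0.14 on the log2 scale (edgeR adjusted p = 0.563), and it differed by -0.10 ± 0.14 in HFD+MEC1 versus HFD (0.787). Pdk4 (chr6:5483351-5496309, minus strand) had the widest relative spread of the members within HFD+MEC1 and within ND, though not within HFD, at 15.6, 9.89, 17.4 and 5.57 CPM in HFD+MEC1, at 22.5, 18.0, 26.8 and 21.02 CPM in HFD and at 31.0, 13.2, 18.4 and 16.6 CPM in ND. The lowest value was HFD+MEC1 replicate 4 and the highest was ND replicate 1. Pdk4 had a log2 fold change of -0.86 ± 0.35 in HFD+MEC1 versus HFD (edgeR adjusted p = 0.299), the largest of any member in that comparison but with the widest error, and of 0.16 ± 0.35 in HFD versus ND (edgeR adjusted p = 0.848). In HFD versus ND the Pdk4 value was 0.45 without ND replicate 1 and 0.00124 without ND replicate 2, both not called. Pdk3 was low, at 0.277 to 0.989 CPM in all 12 libraries, where 3 counts equal 0.0584 to 0.0752 CPM.

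As shares of the summed kinase mRNA per length, Pdk2 made up 63.1 ± 5.93% in HFD+MEC1, 50.8 ± 2.15% in HFD and 58.2 ± 6.61% in ND (RPKM shares, SD, n = 4 each). Pdk1 made up 26.8 ± 5.48% in HFD+MEC1, 35.6 ± 2.60% in HFD and 29.1 ± 2.03% in ND. Pdk4 made up 9.49 ± 4.22% in HFD+MEC1, 13.1 ± 1.61% in HFD and 12.1 ± 5.21% in ND, and Pdk3 stayed under 1% of the sum in every library. The Pdk2 share of HFD+MEC1 lay above every HFD library in all 4 libraries, from 54.8%, against a highest HFD value of 52.7%. These shares are mRNA values and carry no measure of kinase activity.

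Pdp2 encodes a catalytic phosphatase that reactivates E1 (chr8:104591451-104599026, plus strand). It was at 19.1, 15.3, 31.0 and 22.4 CPM in HFD+MEC1, at 17.6, 17.1, 16.6 and 19.7 CPM in HFD and at 16.1, 13.1, 13.7 and 12.7 CPM in ND. HFD exceeded ND in every library, while HFD+MEC1 spread from below the range of HFD to above it. Pdp2 rose in HFD+MEC1 to 21.9 ± 6.68 CPM, against 13.9 ± 1.53 CPM in ND (SD, n = 4 each), a log2 fold change of 0.65 ± 0.17 (edgeR adjusted p = 0.0356). Without HFD+MEC1 replicate 3, the library with the most Saa1, the difference was 0.44 and did not pass (edgeR adjusted p = 0.0811). The call was also lost without HFD+MEC1 replicate 4, ND replicate 2, 3 or 4, or HFD replicate 2, over which the edgeR adjusted p ran from 0.0503 to 0.108. Pdp2 differed by 0.35 ± 0.17 in HFD versus ND (edgeR adjusted p = 0.247) and by 0.31 ± 0.16 in HFD+MEC1 versus HFD (edgeR adjusted p = 0.406), and this last value was 0.10 without HFD+MEC1 replicate 3. The genes most like Pdp2 across the 12 libraries were 5530601H04Rik (r = 0.912), Supt4b (0.900) and Serpina3m (0.899), a serpin. Spearman rho, which uses ranks only, was lower for these genes, at 0.797, 0.755 and 0.748.

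Pdp1, the other phosphatase, was at 1.95, 2.67, 2.36 and 2.34 CPM in HFD+MEC1, at 1.74, 1.68, 1.45 and 1.24 CPM in HFD and at 1.67, 1.41, 1.31 and 1.32 CPM in ND. Every HFD+MEC1 library was above every other library. Pdp1 nonetheless missed the threshold, with a log2 fold change of 0.61 ± 0.22 in HFD+MEC1 versus HFD (edgeR adjusted p = 0.203) and of 0.71 ± 0.22 in HFD+MEC1 versus ND (edgeR adjusted p = 0.0755), on 54 to 136 counts per library. Pdpr gave 0.27 ± 0.14 in HFD+MEC1 versus HFD (edgeR adjusted p = 0.369). Over the 4 remaining genes of the complex (Dld, Pdk3, Pdp1 and Pdpr), 0 passed in any of the 3 comparisons, with median log2 fold changes of 0.07 in HFD versus ND, 0.11 in HFD+MEC1 versus HFD and 0.13 in HFD+MEC1 versus ND.

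Summed Pdk over summed Pdp RPKM was 7.33, 6.39, 3.73 and 5.56 in HFD+MEC1 replicates 1 to 4, 10.8, 7.82, 10.2 and 7.47 in HFD and 9.14, 12.6, 11.8 and 11.3 in ND. The means were 5.75 ± 1.53 in HFD+MEC1, 9.08 ± 1.68 in HFD and 11.2 ± 1.47 in ND. All HFD+MEC1 libraries lay below all others, by little at the edge, where HFD+MEC1 replicate 1 and HFD replicate 4 were close. The kinase sum was 29.96 ± 5.50 RPKM in HFD+MEC1, 39.7 ± 7.35 RPKM in HFD and 36.2 ± 2.49 RPKM in ND, and the phosphatase sum was 5.44 ± 1.43 RPKM in HFD+MEC1, 4.38 ± 0.200 RPKM in HFD and 3.26 ± 0.352 RPKM in ND. In every library of HFD the phosphatase sum was above every ND library, while the kinase sums of these groups overlapped. No TMM scaling was applied to these RPKM sums. On log2(RPKM + 0.1), the median difference of all genes in HFD versus ND was 0.09. Pdp2 over Pdp1 averaged 14.9 in HFD and 12.3 in ND, so the phosphatase sum mostly repeats Pdp2.

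**Figure D3:**
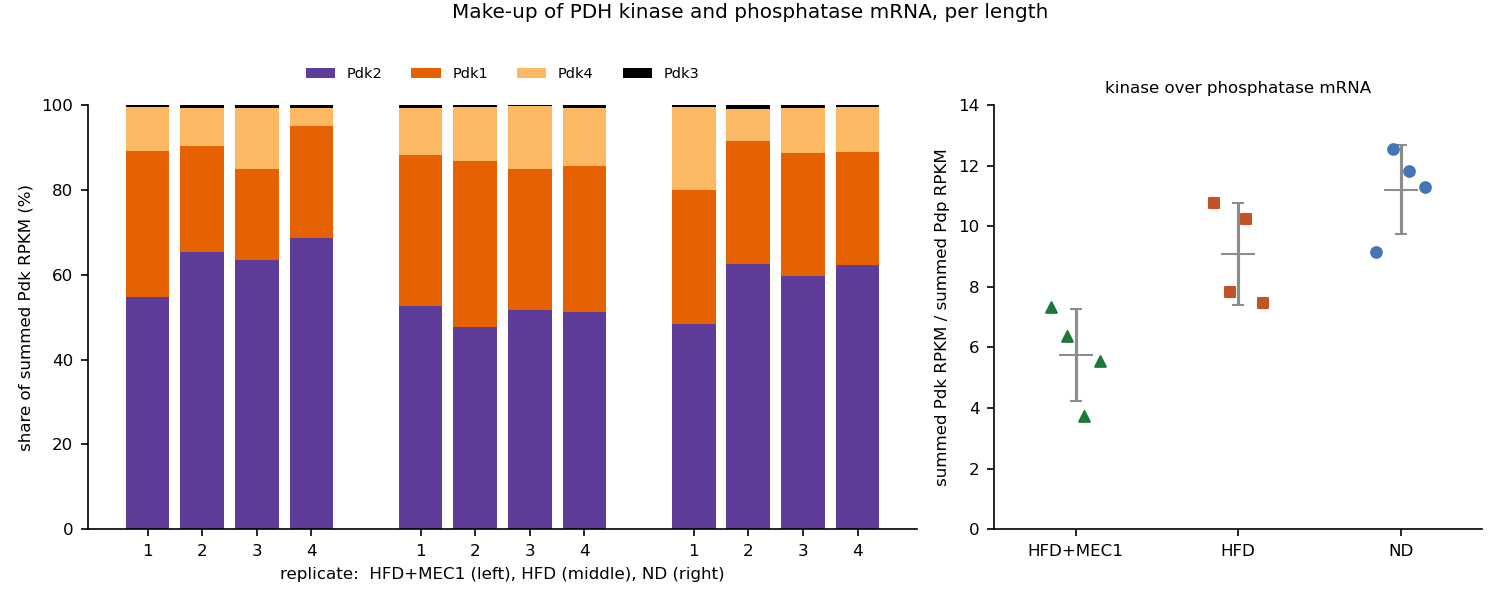
Left, share of each kinase in the summed Pdk RPKM (y axis, percent) for replicates 1 to 4 of HFD+MEC1, HFD and ND. Right, summed Pdk RPKM over summed Pdp RPKM (y axis, ratio) by library, with mean ± SD of 4. Pdk2 is the largest share in every library, and the ratio is lowest in HFD+MEC1, at 3.73 to 7.33.

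The steps that feed pyruvate to the carrier or draw it elsewhere were read from a list of 18 genes, of which 17 were tested. In HFD versus ND, 3 rose and 0 fell, beside 3.35% of all tested genes called higher, and the median log2 fold change was 0.15. Ldha, which interconverts pyruvate and lactate, rose to 1163 ± 208 CPM in HFD, against 660.3 ± 67.9 CPM in ND (log2 fold change 0.82 ± 0.16, edgeR adjusted p = 0.00759). Pcx, the carboxylase that takes pyruvate to oxaloacetate, rose to 499.8 ± 81.2 CPM in HFD, against 339.9 ± 37.5 CPM in ND (0.56 ± 0.14, edgeR adjusted p = 0.0282). Pklr, liver pyruvate kinase, rose to 293 ± 85.1 CPM in HFD, against 155 ± 21.2 CPM in ND (0.92 ± 0.24, edgeR adjusted p = 0.0408). MEC1 on the high-fat diet gave 0 calls among the 17 against HFD, with a median of -0.06; Pklr had the smallest p, at 134.5 ± 42.4 CPM in HFD+MEC1 and 293 ± 85.1 CPM in HFD (-1.12 ± 0.24, edgeR adjusted p = 0.101). In HFD+MEC1 versus ND the median was -0.04, and Ldha rose (1.14 ± 0.16, edgeR adjusted p = 0.00119). Gpt, the alanine transaminase, fell to 137 ± 23.3 CPM in HFD+MEC1, against 227 ± 21.8 CPM in ND (-0.73 ± 0.14, edgeR adjusted p = 0.00828). Calls in that comparison, here and in the lists below, stand beside 4.54% of all tested genes called. All these lists were chosen with earlier results of these data known, so their counts beside all genes are descriptions.

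Genes for the lipoate and thiamine cofactors of PDH (8 of 10 tested) had 0 calls in any comparison, with medians of 0.13 in HFD versus ND, -0.01 in HFD+MEC1 versus HFD and 0.10 in HFD+MEC1 versus ND. Their smallest p-values belonged to Lipt2, a lipoyl transferase, in HFD+MEC1 versus HFD (0.45 ± 0.20, edgeR adjusted p = 0.324), and to Oxsm, a mitochondrial fatty acid synthase enzyme, in HFD+MEC1 versus ND (0.23 ± 0.07, edgeR adjusted p = 0.0869). Genes of the related 2-oxoacid dehydrogenases were read together with the regulators Bckdk and Ppm1k and with Gcsh (9 of 10 tested). Their medians were 0.09, -0.16 and -0.05 in HFD versus ND, HFD+MEC1 versus HFD and HFD+MEC1 versus ND. Dbt, the E2 core of the branched-chain complex, fell in HFD+MEC1 to 86.3 ± 10.3 CPM, against 123 ± 15.7 CPM in ND (-0.51 ± 0.11, edgeR adjusted p = 0.0168), the 1 call among them. In HFD versus ND, Dbt differed by -0.38 ± 0.11 (edgeR adjusted p = 0.0582). The E1 genes Bckdha and Bckdhb of the same complex differed by 0.15 ± 0.10 and 0.19 ± 0.12 there. Neither was called, and both had the sign of the PDH E1 genes. Bckdhb, E1 of that complex, gave the smallest p in HFD+MEC1 versus HFD (-0.42 ± 0.12, edgeR adjusted p = 0.143).

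Downstream of acetyl-CoA, 1 of 15 genes of the tricarboxylic acid cycle rose in HFD versus ND, beside 3.35% of all tested genes called higher. The list's median was 0.09. That gene was Suclg1, a succinyl-CoA ligase subunit, at 191 ± 5.87 CPM in HFD and 149.98 ± 10.3 CPM in ND (0.35 ± 0.09, edgeR adjusted p = 0.0349). With MEC1, 0 passed against HFD, all 15 differences were negative and the median was -0.26. Idh2, the mitochondrial NADP-linked isocitrate dehydrogenase, was nearest the threshold there, at 46.9 ± 8.80 CPM in HFD+MEC1 and 81.1 ± 14.99 CPM in HFD (-0.79 ± 0.14, edgeR adjusted p = 0.0576). It fell against ND, where it averaged 72.6 ± 3.82 CPM (-0.63 ± 0.14, edgeR adjusted p = 0.0143), the 1 call of the list in that comparison, whose median was -0.11.

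The 6 genes that take citrate to fatty acids had a median of -0.04 and 0 calls in HFD versus ND, where Acacb had the smallest p (-0.64 ± 0.31, edgeR adjusted p = 0.283). Set against HFD, HFD+MEC1 gave 0 calls, but all 6 differences were negative and the median was -0.75. Fasn, fatty acid synthase, averaged 285.5 ± 135 CPM in HFD+MEC1 and 788 ± 247 CPM in HFD (-1.46 ± 0.37, edgeR adjusted p = 0.134). Against ND, 3 of the 6 fell in HFD+MEC1, beside 4.54% of all tested genes called in either direction, and the median was -0.72. These were Acacb, an acetyl-CoA carboxylase (-1.67 ± 0.32, edgeR adjusted p = 0.0173), Acly, ATP-citrate lyase (-1.02 ± 0.25, edgeR adjusted p = 0.0436), and Fasn (-1.50 ± 0.37, edgeR adjusted p = 0.0481).

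Pdk4 is a textbook target of the fatty acid sensor PPARA, and genes of that response were read beside it. Of 17 PPARA targets of liver, 12 rose and 0 fell in HFD versus ND, beside 3.35% of all tested genes called higher. This list, too, was chosen with earlier results of these data known, and the contrast is a description. Their median log2 fold change was 0.97. Cpt1a, the gate of mitochondrial fatty acid import, rose to 363.5 ± 27.3 CPM in HFD, against 185.5 ± 19.1 CPM in ND (0.97 ± 0.11, edgeR adjusted p = 0.000185). Hadhb, of the β-oxidation trifunctional protein, rose too (0.74 ± 0.10, edgeR adjusted p = 0.000507). Pdk4 was not called in that comparison, and its 4 HFD libraries lay within the range of ND. Between HFD+MEC1 and HFD, 0 of the 17 targets passed and the median was -0.16, with the smallest p at Creb3l3, a liver transcription factor (0.30 ± 0.11, edgeR adjusted p = 0.219). Against ND, 10 rose and 0 fell in HFD+MEC1, beside 2.15% of all tested genes called higher, and the median was 0.86. Cpt1a led at 430.2 ± 52.5 CPM (1.21 ± 0.11, edgeR adjusted p = 3.32e-05), with Hadhb at 0.66 ± 0.10 (edgeR adjusted p = 0.00134).

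Of 12 known regulators of Pdk4, Ppara rose and Esrra, the estrogen-related receptor, fell in HFD versus ND, beside 6.3% of all tested genes called. The list median was 0.05. Ppara was at 223 ± 13.1 CPM in HFD and 137 ± 16.2 CPM in ND (0.70 ± 0.11, edgeR adjusted p = 0.00187). Esrra was at 23.3 ± 3.79 CPM in HFD and 33.6 ± 2.80 CPM in ND (-0.52 ± 0.12, edgeR adjusted p = 0.0182). The same genes were called in HFD+MEC1 versus ND, Ppara by 0.85 ± 0.11 (edgeR adjusted p = 0.00067) and Esrra by -0.73 ± 0.12 (edgeR adjusted p = 0.00366), with a median of 0.22. In HFD+MEC1 versus HFD, 0 of the 12 passed, the median was 0.11 and Rxra, the partner receptor of PPARA, had the smallest p (0.32 ± 0.11, edgeR adjusted p = 0.188).

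**Figure D4:**
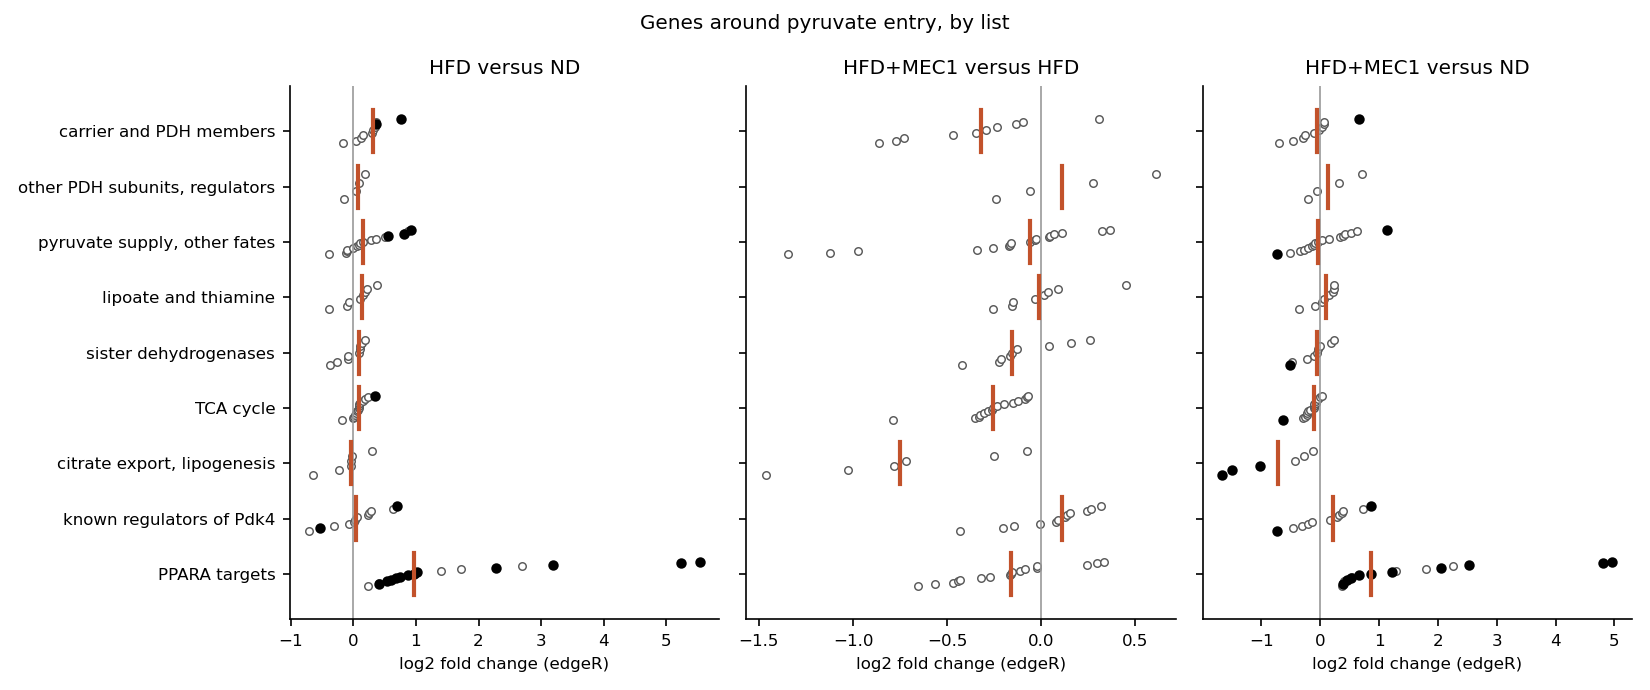
Log2 fold changes from edgeR (x axes, each panel on its own scale) of every tested gene in 9 groups, one per row, for the 3 comparisons. Circles are genes, filled where the adjusted p was under 0.05, and vertical bars are medians; the PPARA targets have a median of 0.97 in HFD versus ND, and the lipogenesis genes one of -0.75 in HFD+MEC1 versus HFD with no gene called.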

How the data were processed

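Counts of reads by gene symbol, whole and not normalised, were deposited by the authors for each of 12 liver libraries, with 1 table of RPKM values, per the file headers; 12 further RPKM columns match no sample in the labels and were not used. STAR 2.7.10a and mm10 are named in the submitters' processing notes without roles or settings; the counting tool, annotation and use of strand are not given in the sources used here. Groups and replicate numbers were read from the sample titles. Deposited counts were filtered (filterByExpr) and scaled (TMM), and 1 quasi-likelihood model over the 3 groups was fitted with edgeR 4.0.16 in R 4.3.3, with two-sided tests and Benjamini-Hochberg adjustment over 14172 genes; 6542 of 24787 genes had no counts. The common coefficient of biological variation was 0.200, and replicates of a group differed by more than counting error (chi-square per gene at least 35.3). CPM use TMM-adjusted totals, and the 3-count limit covers counting error only. Deposited RPKM gave levels between genes, on a linear scale. Alternatives used limma 3.58.1 (voom, and log2(RPKM + 0.1) or log2(RPKM + 1)), DESeq2 1.42.0, other scaling and filters, a replicate block and leaving out each library. Scripts were tested on simulated data. Copies at 95% identity or more over at least 100 bases were searched with BLAST 2.17.0 among GENCODE M21 transcripts, and promoters came from RefSeq.

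The 10 members, the 8 gene lists and 10 marker lists were chosen with earlier results of these data known. All members and remaining complex genes are named; in each other list, the text names genes past the threshold (the 3 with the smallest adjusted p where there are more), or else the 1 with the smallest p. A few genes that this rule would name are not reported here. For each called member, the 3 genes with the highest r are named. The CCAAT motif was added after the promoters had been read.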

Additional observations from a re-analysis of the deposited data

Results flagged for a closer look

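In 3 of the 42 gene and group combinations checked (14 genes of the complex in 3 groups of 4), 1 library lay far from the others by Dixon's criterion at the 95% level, which chance exceeds in about 1 group in 20. Pdhb in HFD+MEC1 replicate 3 had 75.7 CPM, while the rest of HFD+MEC1 had 96.2 to 98.9 CPM. Pdhx in ND replicate 2 was at 21.7 CPM, against 24.8 to 25.1 CPM in the rest of ND. Pdk1 in ND replicate 4 was at 61.3 CPM, against 74.9 to 77.7 CPM in the rest of ND.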

How the results depend on the processing

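Of 660 alternative values of the members' log2 fold changes (22 alternatives, 12 of them leaving out 1 library each), 606 kept their direction and side of the threshold, 21 lost a call, 18 gained one and 15 changed sign, all of these uncalled. Genes called in HFD versus ND numbered 893, but 1391 with DESeq2, 427 with unfiltered log2(RPKM + 0.1) and 423 to 1109 without 1 library. In HFD+MEC1 versus HFD the 4 genes became 389 with DESeq2, 17 with no filter, 2 in a fit of those 2 groups, 1 with limma-voom or log2(RPKM + 1), 0 with library totals or log2(RPKM + 0.1), filtered or not, and 0 to 460 without 1 library. In HFD+MEC1 versus ND the 644 became 1155 with DESeq2, 213 with unfiltered RPKM and 334 to 678 without 1 library. Members called in HFD versus ND were 2, but 4 in the fit of 2 groups, 0 with unfiltered RPKM and 0 to 4 without 1 library; in HFD+MEC1 versus HFD they were 3 with DESeq2 and 0 to 4 without 1 library; in HFD+MEC1 versus ND the single call, Pdp2, was absent (0) with limma-voom, the fit of 2 groups and unfiltered RPKM, and the count was 0 to 2 without 1 library. The cause was not tested, apart from the smaller number of libraries or the larger number of genes in the fits built that way.

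Signs changed near 0 for Dlat in HFD versus ND (-0.0317 to 0.103 without 1 library), Pdk2 in HFD+MEC1 versus HFD (-0.197 to 0.0169), and, in HFD+MEC1 versus ND, Mpc1 (-0.00279 with limma-voom, -0.0875 to 0.173 without 1 library), Mpc2 (-0.0615 to 0.147) and Pdhx (0.0551 with library totals, 0.0609 with log2(RPKM + 0.1), filtered or not, 0.0546 with log2(RPKM + 1), and -0.0692 to 0.0319 without 1 library). Without TMM, the median of all genes in HFD versus ND moved to 0.12, and 79.5% of calls were higher in HFD, against 53.2% with TMM; in HFD+MEC1 versus ND these shares were 66.8% and 47.2%. Positive member differences in HFD versus ND are read relative to that shift.

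Equal replicate numbers did not pair the libraries: deviations of same-numbered libraries correlated at -0.05 to 0.09 in HFD versus ND, 0.02 to 0.13 in HFD+MEC1 versus HFD and -0.09 to 0.06 in HFD+MEC1 versus ND. With a replicate block, genes called were 896, 21 and 716 and members called 3, 0 and 1 in these comparisons; Pdha1 then passed in HFD versus ND (0.37, edgeR adjusted p = 0.0352). Counting depth limits Pdk3, whose libraries held 14 to 42 counts.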
